A study of Mus musculus with 6 samples.

Results

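The genes of the VEGF (vascular endothelial growth factor) ligands, their receptors and the neuropilins were examined in a mouse endothelial line with and without VEC (vascular endothelial cadherin). The 9 genes were chosen by name: the ligands *Vegfa*, *Vegfb*, *Vegfc* and *Pgf*, the receptor tyrosine kinases *Flt1*, *Kdr* and *Flt4*, and the co-receptors *Nrp1* and *Nrp2*. Each matched 1 row by Ensembl identifier among 24080 genes, and all 9 passed the filter on low values in both groups. VEC-null cells were endothelial cells derived from mouse embryonic stem cells, homozygous for a null mutation of the VEC gene. VEC-positive cells were the same VEC-null line into which wild-type VEC had been brought by retroviral transfer, so they carry the null alleles too. Total RNA was sequenced in 3 libraries of each, which the study calls biological replicates. Each group is 1 line, so an effect of VEC cannot be told apart from other differences between the lines.

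VEGF ligands are secreted dimers that bind receptor tyrosine kinases on endothelial cells. KDR (VEGFR2) carries most of the growth, migration and permeability response to VEGF-A, FLT1 (VEGFR1) binds VEGF-A tightly but signals weakly and also exists as a soluble trap, and FLT4 (VEGFR3) is the receptor of VEGF-C and VEGF-D and is best known from lymphatic endothelium. VEGF-B and placental growth factor bind FLT1 and not KDR. Neuropilins hold ligands beside the receptors and are also the receptors of class 3 semaphorins. VEC itself forms complexes with KDR at endothelial junctions.

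The gene of VEC, *Cdh5*, ran against the labels. The libraries labelled VEC-null 1, 2 and 3 held 1334, 1439 and 1689 normalized counts of it (reads divided by a size factor per library), and those labelled VEC-positive 1, 2 and 3 held 794.3, 739.4 and 749.7, with no overlap (log2 fold change -0.96, SE 0.098, adjusted p = 0.000182 from limma). A total over the gene cannot tell RNA from the retroviral cDNA apart from RNA of the mutated locus, and an exchange of labels was not tested, so all directions below are given by label. Other endothelial genes, named here after their values were seen, were higher under the VEC-positive label: the tight junction gene *Cldn5*, known to be induced by VEC, was at 6.38 ± 2.49 and 459 ± 46.7, *Vwf*, which encodes von Willebrand factor, at 401 ± 13.5 and 1746 ± 80.3, and *Ptprb*, which encodes the phosphatase VE-PTP, at 5846 ± 398 and 21562 ± 870 normalized counts (SD, n = 3 each). The study reports *Cldn5*, *Vwf* and *Ptprb* as upregulated by VEC, and also measured each of them by quantitative PCR in VEC-null and VEC-positive cells. Recovered reads were 6036155 to 14136376 per library, and transcripts of the mitochondrial genome took 9.62% to 14.9% of them in libraries labelled VEC-null and 17.97% to 24.18% in those labelled VEC-positive. Library VEC-null 3 stood apart. Its chi-square, a mean over the genes compared, came to 50.51 against VEC-null 1 and 48.61 against VEC-null 2. That between VEC-null 1 and 2 came to 6.57, and those between VEC-positive libraries to 11.83 to 18.42. Of 22 endothelial markers, 21 were analysed, all of them with reads in both groups, and their normalized counts summed to 68469 to 71794 in the VEC-null libraries and 108251 to 111873 in the VEC-positive ones. *Ptprb*, *Kdr* and *Flt1*, all of high level and higher under the VEC-positive label, are in this sum. Of the 21, 13 were higher, 3 lower (*Cdh5*, *Robo4* and *Ecscr*) and 5 did not pass. Over all tested genes 20.9% were higher and 16.4% lower. *Cldn5* was under 10 in every VEC-null library and entered the test only through VEC-positive. In bulk RNA, fewer cells of a type and less RNA per cell cannot be told apart. The 11 markers of mural cells and fibroblasts that were analysed summed to 184 to 289 and 269 to 324. *Kcnj8* had 3 reads in VEC-null in all and 0 in VEC-positive. *Pdgfrb*, the PDGF receptor of pericytes, was at means of 1.10 and 105, while *Abcc9*, a channel subunit of pericytes, was at 79.6 and 4.98. Of the 6 tested, *Pdgfrb* was higher and *Abcc9* lower. Each was under 10 in every library of the other group and entered the test only through the group where it is high. The 4 markers of blood cells that were analysed summed to 129 to 436 and 143 to 199. Among 5 epithelial and 3 pluripotency markers no library summed to more than 7.09 and 12.9. *Epcam* and *Cldn4* had 0 reads in VEC-null and only 3 and 5 in VEC-positive in all. The part of other cell types in the results was not tested.

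To show the DNA at the start of the members, the 250 bases before the first transcription start that RefSeq lists (build GRCm38.p6) are printed for a ligand and a receptor pair. *Vegfa* and *Vegfb* are ligands whose RNA went in opposite directions, and *Flt1* and *Kdr* are the receptors that both rose. Sequences run 5′ to 3′ on the strand of the gene, which is the minus strand for these 4 genes, and end 1 base before the start. Capitals mark matches on either strand to GGGCGG, the core bound by SP1, and to CCGGAA, a core bound by ETS factors. The windows are chr17:46032378-46032627 for *Vegfa*, chr19:6987652-6987901 for *Vegfb*, chr5:147726012-147726261 for *Flt1* and chr5:75978456-75978705 for *Kdr*.
Vegfa: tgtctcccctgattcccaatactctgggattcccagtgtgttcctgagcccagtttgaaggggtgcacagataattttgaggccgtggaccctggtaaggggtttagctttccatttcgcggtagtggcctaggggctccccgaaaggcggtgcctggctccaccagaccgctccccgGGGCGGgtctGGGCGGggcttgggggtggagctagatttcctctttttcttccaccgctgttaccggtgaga
Vegfb: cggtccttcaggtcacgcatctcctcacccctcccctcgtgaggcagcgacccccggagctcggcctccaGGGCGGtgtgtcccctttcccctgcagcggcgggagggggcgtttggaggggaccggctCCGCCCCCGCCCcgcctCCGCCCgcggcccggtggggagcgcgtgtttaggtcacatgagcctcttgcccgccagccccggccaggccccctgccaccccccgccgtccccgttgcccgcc
Flt1: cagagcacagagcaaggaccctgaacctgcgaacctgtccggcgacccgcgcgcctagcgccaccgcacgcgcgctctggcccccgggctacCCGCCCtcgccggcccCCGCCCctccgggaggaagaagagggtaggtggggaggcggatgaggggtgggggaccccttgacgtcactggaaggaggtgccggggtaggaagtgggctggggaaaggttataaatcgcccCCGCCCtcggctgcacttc
Kdr: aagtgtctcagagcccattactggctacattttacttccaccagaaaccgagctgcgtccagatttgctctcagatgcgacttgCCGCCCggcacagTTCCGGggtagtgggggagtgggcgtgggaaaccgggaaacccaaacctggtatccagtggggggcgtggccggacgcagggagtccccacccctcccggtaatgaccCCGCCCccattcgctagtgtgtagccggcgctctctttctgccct
GGGCGG or its reverse complement lay in this window for all 9 members, against 60.3% of 9463 tested genes matched by symbol at their first listed start and 32.7% of all 32851 starts. *Vegfa* held 2 matches, *Vegfb* 4, *Flt1* 3 and *Kdr* 2. CCGGAA lay in the *Kdr* window alone, on the opposite strand from base -153 to base -148 counted from the start, and in 23.3% of the tested genes. CTTTGA, a core bound by TCF and LEF factors, lay in the *Nrp2* window, and in 10.4% of the tested genes. GTAAACA, a core bound by FOXO factors, was found at none of the 11 starts listed for the members and in 2.05% of the tested genes. ACGTG, the core of the hypoxia response element, lay only before a second start of *Vegfa* inside the gene, in a window of which 218 bases are exon. It lay in the window of 21.9% of the tested genes. DNA farther upstream than 250 bases was not searched for any motif. Between different motifs no match overlapped, and in *Nrp2* a pair of GGGCGG matches shared 1 base. The windows of *Pgf* and *Flt4* lay wholly in exons of longer transcripts of those genes in GENCODE M21 and are not printed. These matches are letters in a window and were not tested as binding sites.

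Of the 9 members, 4 were higher and 4 lower in the libraries labelled VEC-positive, and *Nrp1* did not pass the test. Over all 14032 tested genes 20.9% were higher, 16.4% lower and 37.3% called in either direction, by limma at an adjusted p under 0.05. For all 9 members the libraries of the groups did not overlap, which held for 50% of all tested genes. The median absolute log2 fold change was 0.62 over the members and 0.39 over all tested genes, and their median signed change was -0.20 against -0.01. The members that rose were the ligands *Vegfa* and *Vegfc* and the receptors *Flt1* and *Kdr*, and those that fell were the ligands *Vegfb* and *Pgf*, the receptor *Flt4* and *Nrp2*. The changes of *Vegfa* and *Pgf* exceeded 2-fold, while the others were smaller. That of *Vegfa* was under 2-fold with libraries scaled to equal totals (0.75 on the log2 scale) and with totals that leave out mitochondrial genes (0.91).

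**Figure D1:**
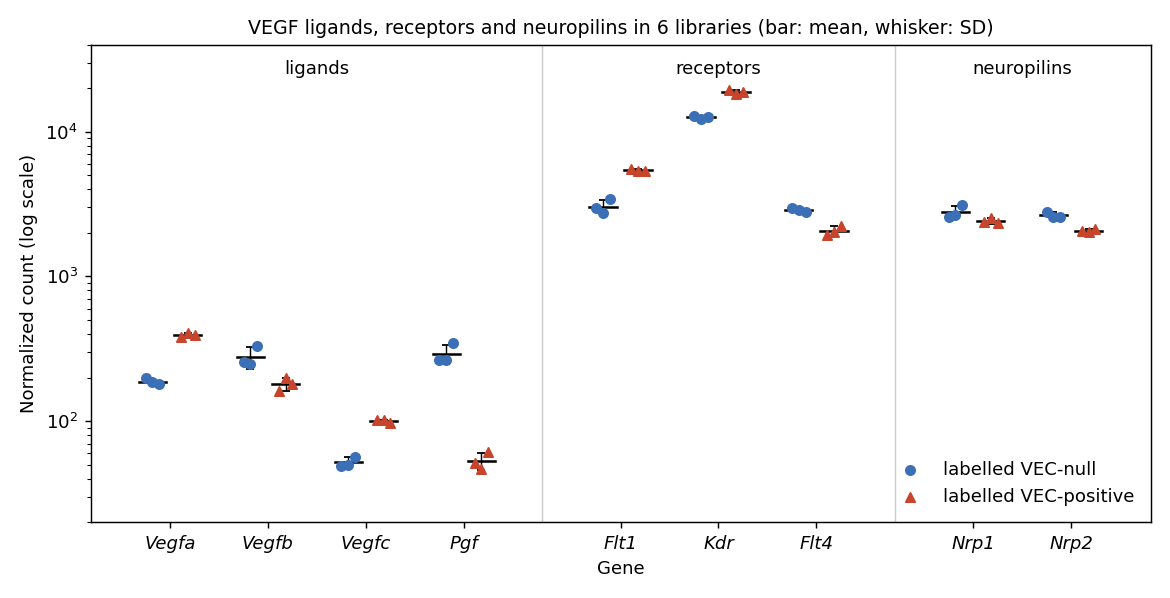
Normalized counts (vertical axis, log scale) of the 9 members in each of 6 libraries, with circles for libraries labelled VEC-null and triangles for those labelled VEC-positive, bars at the mean and whiskers of 1 SD (n = 3). The groups of each gene do not overlap, with the widest gap at *Pgf* (265 to 344 against 46.8 to 61.3) and the narrowest at *Nrp1* (2575 to 3114 against 2346 to 2538).

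*Vegfa* (ENSMUSG00000023951) encodes VEGF-A, the main growth factor of endothelium, and is read from the minus strand of chromosome 17 (mm10, 46016993 to 46032369). It had 197.4, 186.6 and 179.1 normalized counts in VEC-null 1, 2 and 3, against 380.2, 405.2 and 391.4 in VEC-positive 1, 2 and 3. All 3 libraries labelled VEC-positive lay near 2 times the level of any labelled VEC-null, a ratio of means of 2.09 and a log2 fold change of 1.06 for VEC-positive over VEC-null (SE 0.092, 95% interval 0.85 to 1.27, adjusted p = 7.92e-05 from limma). The SD was 4.90% of the mean in VEC-null, where counting error alone gives 7.51% at 129 to 237 reads per library. Counts per gene do not show which splice forms of VEGF-A, short and diffusible or long and matrix-bound, were present.

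*Vegfc* encodes the ligand of FLT4 that drives lymphatic growth (ENSMUSG00000031520, chromosome 8, 54077606 to 54187096, plus strand). It was the ligand with the fewest reads in VEC-null, with normalized counts of 49.0, 49.6 and 56.7 there and 101.5, 101.3 and 96.8 in VEC-positive. The groups were well apart, with a log2 fold change of 0.94 (SE 0.15, adjusted p = 0.002). *Vegfd*, the other ligand of FLT4, is not among the 9 members and was low in VEC-null. It had 8 reads over the 3 libraries labelled VEC-null and 90 over those labelled VEC-positive (log2 fold change 3.17, SE 0.43, adjusted p = 0.000792). It passed the filter only through the group where it is high.

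The ligands that bind FLT1 and not KDR fell. *Pgf*, which encodes placental growth factor (ENSMUSG00000004791, chromosome 12, 85166635 to 85177790, minus strand), had 264.7, 266.2 and 344.0 normalized counts in VEC-null 1, 2 and 3, against 51.3, 46.8 and 61.3 in VEC-positive 1, 2 and 3. VEC-null 3 was the highest library, and the lowest of VEC-null was still over 4 times the highest of VEC-positive. The level was 5.49-fold lower in VEC-positive, with a log2 fold change of -2.43 (SE 0.17, 95% interval -2.81 to -2.05, adjusted p = 2.39e-05). Among all tested genes 3.28% had a larger absolute change. Without VEC-null 3 the log2 fold change was -2.31 (adjusted p = 8.18e-06).

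*Vegfb* encodes VEGF-B (ENSMUSG00000024962, chromosome 19, 6982473 to 6987651, minus strand) and had 255.5, 246.5 and 332.5 normalized counts in VEC-null 1, 2 and 3, against 161.0, 197.7 and 179.1 in VEC-positive 1, 2 and 3. VEC-null 3 was again the highest library, and the groups did not overlap. The log2 fold change was -0.62 (SE 0.15, 95% interval -0.96 to -0.29, adjusted p = 0.0115). Leaving out VEC-null 3 gave -0.49 (adjusted p = 0.00829), and leaving out VEC-positive 1 gave -0.55 and ended the call (adjusted p = 0.0525). Of the called members, *Vegfb* had the highest adjusted p.

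Among the receptors, *Kdr* and *Flt1* rose while *Flt4* fell. *Kdr* (ENSMUSG00000062960, chromosome 5, 75932827 to 75978458, minus strand) had 12920, 12302 and 12659 normalized counts in VEC-null 1, 2 and 3, against 19433, 18149 and 18860 in VEC-positive 1, 2 and 3. Libraries of a group lay close together, with an SD of 2.46% of the mean in VEC-null and 3.42% in VEC-positive, and the difference was 1.49-fold. The log2 fold change was 0.57 (SE 0.082, 95% interval 0.39 to 0.76, adjusted p = 0.00102).

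*Flt1* (ENSMUSG00000029648, chromosome 5, 147561604 to 147726011, minus strand) had 2965, 2729 and 3402 normalized counts in VEC-null 1, 2 and 3, against 5531, 5377 and 5361 in VEC-positive 1, 2 and 3. VEC-null 3 was the highest of its group but remained well below every VEC-positive library. The level was 1.79-fold higher, with a log2 fold change of 0.84 (SE 0.092, 95% interval 0.63 to 1.06, adjusted p = 0.000246), and it was 0.93 without VEC-null 3. Transcripts of the membrane receptor and of the soluble trap share exons and were not separated here.

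*Flt4* (ENSMUSG00000020357, chromosome 11, 49609263 to 49652739, plus strand) had 2971, 2862 and 2767 normalized counts in VEC-null 1, 2 and 3, against 1926, 2015 and 2232 in VEC-positive 1, 2 and 3. The groups did not overlap. The log2 fold change was -0.48 (SE 0.079, 95% interval -0.66 to -0.30, adjusted p = 0.00208).

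The neuropilins had the smallest fold changes of the 9. *Nrp2*, a co-receptor of FLT4 and a receptor of semaphorin 3F (ENSMUSG00000025969, chromosome 1, 62703285 to 62818695, plus strand), had 2806, 2563 and 2558 normalized counts in VEC-null 1, 2 and 3, against 2053, 2021 and 2134 in VEC-positive 1, 2 and 3. These differ by 1.28-fold, with a log2 fold change of -0.35 (SE 0.071, 95% interval -0.52 to -0.19, adjusted p = 0.00576). *Nrp1*, a co-receptor of KDR and a receptor of semaphorin 3A (ENSMUSG00000025810, chromosome 8, 128358604 to 128503363, plus strand), had 2575, 2648 and 3114 normalized counts in VEC-null 1, 2 and 3, against 2372, 2538 and 2346 in VEC-positive 1, 2 and 3.
The groups of *Nrp1* were separate by a narrow margin, and it did not pass the test (log2 fold change -0.20, SE 0.090, 95% interval -0.40 to 0.01, adjusted p = 0.126). Without VEC-null 3, its highest library, the value was -0.11. An opposite-strand gene and a second gene model overlap *Nrp2* without sharing exon bases, and a microRNA gene shares 80 exon bases with *Nrp1*, while the other 7 members overlap no other gene of GENCODE M21.

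**Figure D2:**
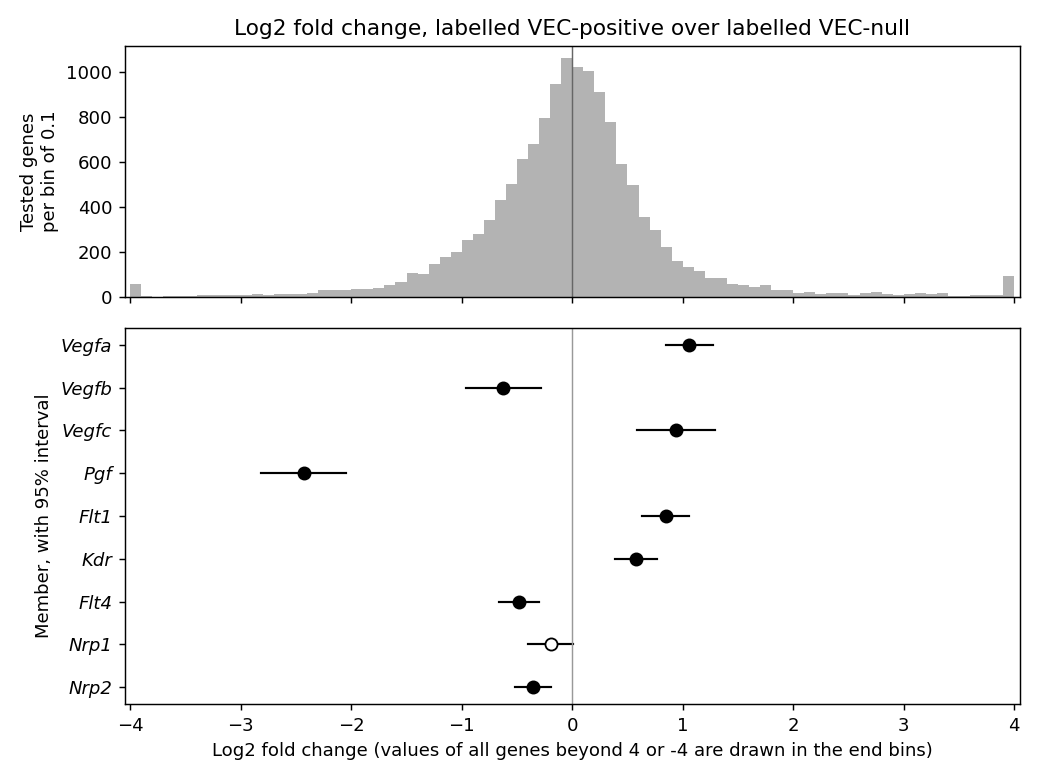
Top, number of tested genes (vertical axis) by log2 fold change between the labels, VEC-positive over VEC-null (horizontal axis). Bottom, the 9 members on the same axis with 95% intervals, filled where the adjusted p was under 0.05. There, 4 members lie right of 0, from 0.57 (*Kdr*) to 1.06 (*Vegfa*), and the interval of *Nrp1* alone includes 0.

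To compare levels between genes, normalized counts were divided by the length of each gene's merged exons in kilobases. On this scale *Kdr* was the most abundant member in both groups, with 1398 ± 34.4 (SD, n = 3) per kilobase in VEC-null, above 98.4% of tested genes, and 2083 ± 71.2 (SD, n = 3) in VEC-positive. In VEC-null *Flt4* came next with 348 ± 12.4 (SD, n = 3), then *Nrp1* with 284 ± 29.9 (SD, n = 3), and *Flt1* with 225 ± 25.3 (SD, n = 3) beside *Nrp2* with 223 ± 12 (SD, n = 3). The libraries of *Flt1* and *Nrp2* overlapped there, so their order is not resolved, and every other pair of neighbours in the VEC-null order was separate.
In VEC-positive *Flt1* came after *Kdr*, with 402 ± 6.95 (SD, n = 3) per kilobase. *Flt4* followed with 249.9 ± 19.1 (SD, n = 3) and overlapped *Nrp1* with 247 ± 10.6 (SD, n = 3), then came *Nrp2* with 175 ± 4.89 (SD, n = 3). *Flt1* and *Flt4* thus held the reverse order per kilobase in the libraries of the other label. Merged exons include rarely used ones, so the levels per kilobase are approximate.

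Within each group all 4 ligands were below the receptors and neuropilins per kilobase. *Vegfb* was the highest ligand in both groups, at 173 ± 29.4 in VEC-null and 112 ± 11.5 in VEC-positive (SD, n = 3 each). *Pgf* was second in VEC-null with 100.5 ± 15.6 (SD, n = 3) and last in VEC-positive with 18.3 ± 2.57 (SD, n = 3), while *Vegfa* went from 43.8 ± 2.14 to 91.5 ± 2.92 (SD, n = 3 each) and *Vegfc* from 21.1 ± 1.76 to 40.8 ± 1.07 (SD, n = 3 each).
Of the summed ligand level per kilobase, *Vegfa* made up 14.6%, 14.1% and 10.7% in VEC-null 1, 2 and 3, against 35.8%, 34.4% and 34.6% in VEC-positive 1, 2 and 3. *Pgf* made up 28.8%, 29.7% and 30.3% in VEC-null, against 7.12%, 5.85% and 8.01% in VEC-positive. *Kdr* took 70.4% to 71.2% of the summed receptor level in VEC-null and 75.8% to 77.0% in VEC-positive, and *Flt4* 16.9% to 18.2% and 8.37% to 9.84%.

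Ratios between members of 1 library do not depend on how libraries were scaled. In 4 of the 6 ratios compared the groups did not overlap. For *Pgf* to *Vegfa*, *Vegfa* to *Vegfb* and *Flt4* to *Kdr* this follows from the members themselves, whose groups did not overlap and which moved in opposite directions. The log2 ratio of *Pgf* to *Vegfa* was 0.42, 0.51 and 0.94 in VEC-null, against -2.87, -3.09 and -2.65 in VEC-positive, a difference of -3.49. Per kilobase, too, *Pgf* lay above *Vegfa* in VEC-null and below it in VEC-positive. The log2 ratio of *Vegfa* to *Vegfb* was -0.37, -0.40 and -0.89 in VEC-null, against 1.24, 1.03 and 1.12 in VEC-positive, a difference of 1.68. Per kilobase this pair did not change order, since *Vegfb* lay above *Vegfa* in both groups.
Relative to *Kdr*, *Flt4* was lower by a log2 difference of -1.06 (-2.14 ± 0.048 and -3.19 ± 0.13, SD, n = 3), and *Flt1* higher by 0.27 (-2.06 ± 0.15 and -1.79 ± 0.034, SD, n = 3), with VEC-null 3 at -1.90 near the VEC-positive range. Each of these 4 had p = 0.1 in a two-sided exact permutation test, the smallest that 3 against 3 libraries can give, and 0.15 after adjustment over the 6 ratios. The groups overlapped for *Nrp1* to *Nrp2* (difference 0.16, exact p = 0.3) and *Vegfc* to *Vegfa* (difference -0.12, exact p = 0.2).

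**Figure D3:**
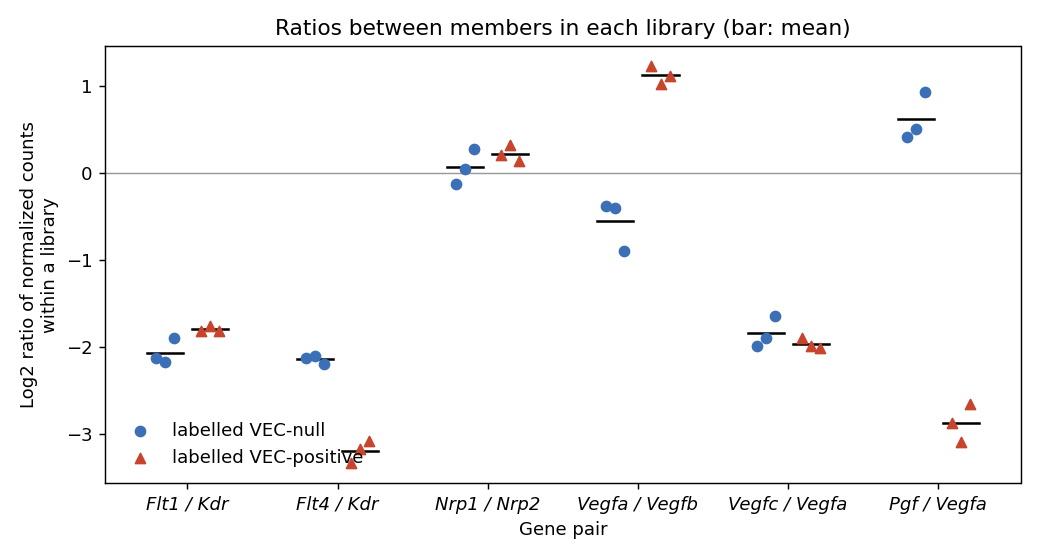
Log2 ratio of normalized counts between a pair of members within each library (vertical axis) for 6 gene pairs (horizontal axis), circles for libraries labelled VEC-null, triangles for those labelled VEC-positive, bars at the mean (n = 3). The ratio of *Pgf* to *Vegfa* differs most, by -3.49, while the groups overlap for *Nrp1* to *Nrp2* and *Vegfc* to *Vegfa*.

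The genes most like each member over the 6 libraries were found as the smallest root mean square difference between log2 values centred on their own mean, among 7813 other tested genes with a mean of at least 100. This distance reads the difference between the labels and the spread between libraries together. Nearest to *Vegfa* was *Ptp4a3*, a phosphatase gene (0.05). Nearest to *Kdr* were the transcription factor genes *Nfib* (0.02) and *Etv6* (0.02), the latter of the ETS family. Nearest to *Flt1* were *Abhd2* (0.03) and *Spred1* (0.03), an inhibitor of ERK signalling, and to *Flt4* *Vars* (0.04). *Pgf* had no near neighbour of that kind, the closest being *Chst11*, a chondroitin sulfotransferase, at 0.14.

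Other genes of the pathway were taken from 6 lists. Their median log2 fold changes are given against -0.01 for all tested genes, and with libraries scaled to equal totals, where that median is -0.32, the split of each list shifted toward lower. The counts of each list stand against 20.9% higher and 16.4% lower over all 14032 tested genes. With equal totals 1566 of these were higher and 4960 lower. Among 47 tested genes of intracellular VEGF signalling, 20 were higher, 6 lower and 21 did not pass (median 0.24, and 10 higher and 16 lower with equal totals). *Prkca* and *Prkcd*, protein kinases C, moved apart, the former up by 1.12 on the log2 scale (adjusted p = 0.00107) and the latter by -1.43 (adjusted p = 0.000108). The adaptors *Shb*, which binds KDR, and *Nck1* had 0.97 and 0.93, and the kinase *Src* had -0.90. *Plcg1*, the phospholipase that KDR activates, was at 3969 ± 223 and 3735 ± 216 (SD, n = 3 each) normalized counts and did not pass (adjusted p = 0.414). *Nfatc2*, among the 20 that were higher, was under 10 in every VEC-null library and entered the test only through VEC-positive.

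Of 30 tested genes known to be induced by VEGF in endothelial cells, 18 were higher, 5 lower and 7 did not pass (median 0.71, and 13 higher and 8 lower with equal totals). *Klf4*, a transcription factor, rose from 129 ± 7.16 to 924 ± 32.0 (SD, n = 3 each) normalized counts. *Nid2*, a basement membrane protein, had a log2 fold change of 2.26, the protease *Adamts1* 1.22 and the secreted glycoprotein *Stc1* 1.08. *Kcne3*, a potassium channel subunit, was at 5.67 ± 2.30 and 96.5 ± 4.48 (SD, n = 3 each). It was under 10 in every VEC-null library, as was *F3*, and both entered the test only through VEC-positive. The 5 that fell, named after their values were seen, were *Dusp6*, *Dll4*, *Hlx*, *Atf3* and *Hey1*, with *Dll4*, the Notch ligand of tip cells, at 646 ± 32.0 and 349 ± 8.0 (SD, n = 3 each).

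Of 43 tested genes of receptor traffic and modulation, 22 were higher, 6 lower and 15 did not pass (median 0.29, and 13 higher and 9 lower with equal totals). Without VEC-positive 3, 3 were lower. Among phosphatases, *Ptprb*, which encodes VE-PTP, was changed by 1.88 on the log2 scale (adjusted p = 3.08e-06), and *Ptprj* rose from 44.3 ± 27.7 to 309.7 ± 2.62 (SD, n = 3 each) normalized counts, while *Ptpn2*, named after its value was seen, was among the 6 that were lower. *Dab2*, an endocytic adaptor of VEGF receptors, had 1.13, the myosin *Myo6* 1.10 and the receptor kinase *Axl* 2.63. The ubiquitin ligase gene *Nedd4* did not pass (log2 fold change 0.06, adjusted p = 0.709, and -0.25 with equal totals).

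Because *Vegfa* is a target of hypoxia-inducible factors, 32 tested genes of that pathway were read beside it, of which 11 were higher, 3 lower and 18 did not pass (median 0.25, and 7 higher and 10 lower with equal totals). Over all tested genes 37.3% were called in either direction. *Epas1*, which encodes HIF-2α, was changed by 1.01 on the log2 scale (adjusted p = 3.09e-05), and the targets *Ndrg1*, *P4ha2* and *Higd1a* had 0.87, 1.10 and 1.10. *Hif1a* was at 4932 ± 1144 and 6544 ± 277 (SD, n = 3 each) normalized counts and did not pass (adjusted p = 0.0519). Of the 3 that fell, named after their values were seen, *Pgk1* and *Eno1* are glycolytic enzymes and *Bhlhe40* is a transcription factor. The counts of this list moved with single libraries, with 17 higher without VEC-null 3 and 5 lower without VEC-null 1.

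Class 3 semaphorins compete with VEGF for neuropilins or signal through plexins. The 9 semaphorin and plexin genes tested held 5 that were higher, 1 lower and 3 uncalled (median 0.60, and 4 higher and 2 lower with equal totals). *Sema3d* rose from 49.3 ± 2.35 to 623 ± 15.2 (SD, n = 3 each) normalized counts, *Sema3f*, a ligand of NRP2, had a log2 fold change of 0.89, and *Sema3e*, a ligand of plexin D1, fell from 123 ± 45.4 to 29.8 ± 8.06 (SD, n = 3 each). *Sema3a*, a ligand of NRP1, did not pass (log2 fold change 0.07, adjusted p = 0.622, and -0.24 with equal totals).

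Beside *Flt4*, 21 genes of lymphatic endothelium were tested, of which 11 were higher, 5 lower and 5 did not pass (median 0.22, and 6 higher and 6 lower with equal totals). *Vegfd*, which passed the filter only through VEC-positive, is among the 11. So are *Tek*, *Tie1* and *Sox18*, which are also among the endothelial markers above, so the list is not specific to lymphatic endothelium. *Foxc2*, with a log2 fold change of -0.45, is among the 5 that were lower. *Prox1*, the transcription factor of lymphatic identity, was at 22.3 ± 15.4 and 8.72 ± 9.53 (SD, n = 3 each) normalized counts and did not pass (adjusted p = 0.168), and *Lyve1* fell from 64.3 ± 13.7 to 23.8 ± 3.74 (SD, n = 3 each). *Nr2f2* and *Sox18*, transcription factors of venous and early lymphatic endothelium, were higher, from 7372 ± 712 to 10593 ± 510 and from 852 ± 5.25 to 992 ± 31.5 (SD, n = 3 each), but the log2 fold change of *Sox18*, 0.22, is smaller than the shift of all genes with equal totals. These 4, *Tie1* and *Foxc2* were named after their values were seen, and *Pdpn* and *Ccl21a* were not analysed here. The study lists *Sox18* and *Pecam1* among genes that VEC expression did not influence, and measured both by quantitative PCR. Its calls from sequencing also had a limit on fold change, which the calls here did not. *Pecam1*, named after its value was seen, was called higher here too, at 0.34 (adjusted p = 0.0143 from limma). Among the genes drawn by rule, *Klf2*, *Itga9* and *Nfatc1* had log2 fold changes of 1.53, 1.10 and 0.87 and *Foxc1* one of -0.98. The angiopoietin receptor *Tek* had 0.62.

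**Figure D4:**
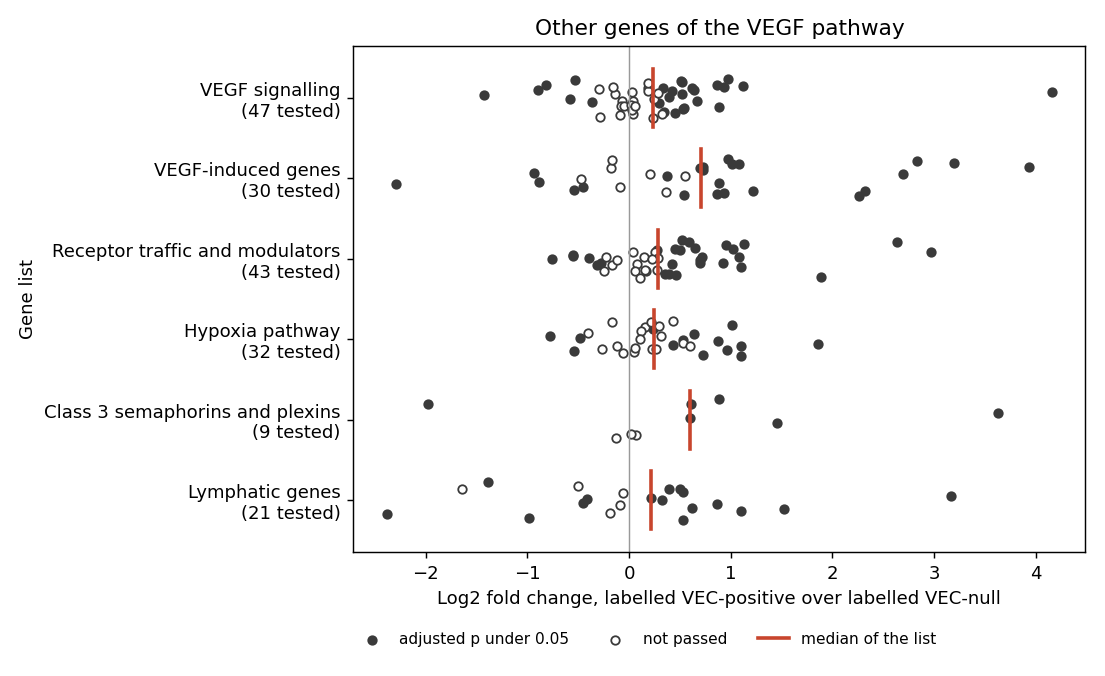
Log2 fold change between the labels, VEC-positive over VEC-null (horizontal axis) of each tested gene of 6 lists (vertical axis, points spread for visibility), filled where the adjusted p was under 0.05, with a bar at the median of the list. The medians run from 0.22 (lymphatic genes) to 0.71 (VEGF-induced genes).

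The direction of each member held under all 16 alternatives. *Vegfa*, *Vegfc*, *Pgf*, *Flt1*, *Kdr*, *Flt4* and *Nrp2* passed in all 16, and *Vegfb* in 15. With equal totals, which move the median of all tested genes to -0.32, *Kdr* was at 0.26 (adjusted p = 0.0441), and *Nrp1* passed as lower at -0.51 (adjusted p = 0.00182). With equal totals that leave out mitochondrial genes, whose share differs between the labels, that median was -0.16 and *Kdr* was at 0.43 and *Nrp1* at -0.34 (adjusted p = 0.0287).

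**Figure D5:**
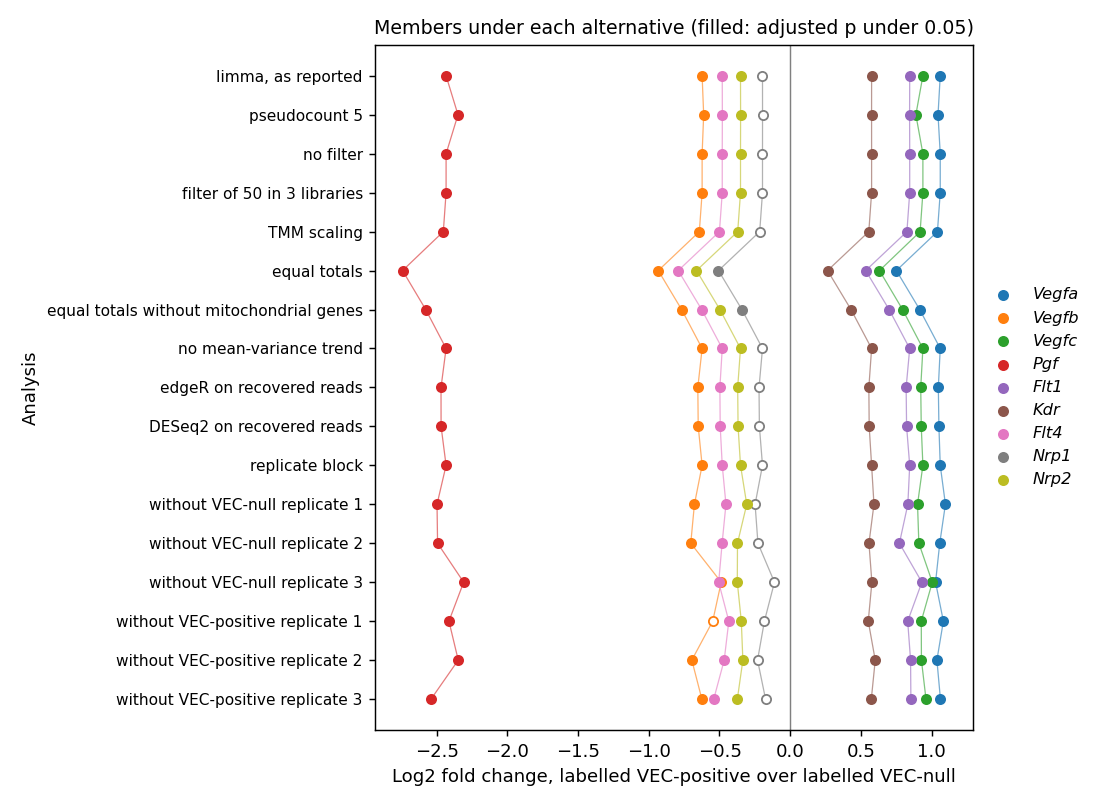
Log2 fold change between the labels, VEC-positive over VEC-null (horizontal axis) of the 9 members under the reported fit and 16 alternatives (vertical axis), filled where the adjusted p was under 0.05. No line crosses 0, all move left with equal totals, and the open points are *Nrp1* in all but 2 alternatives and *Vegfb* without VEC-positive replicate 1.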

How the data were processed

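Per the labels, total RNA of 3 VEC-null and 3 VEC-positive libraries was prepared with a stranded kit. The submitters' processing notes name Trim Galore, TopHat2 2.1.1, DESeq2 1.14 and mm10. The sources used here do not give the counting program, its annotation or its use of strand. The values deposited by the authors are a signal per gene, namely read counts scaled by a size factor for each library. Every value was a whole multiple of its library's step within 0.01 of a read, which gave back whole reads. Symbols (23908 of 24080 genes), coordinates and exon lengths came from GENCODE M21, promoter sequences from RefSeq. The intervals given with log2 fold changes come from the limma fit and rest on the spread between libraries. The counting error given for *Vegfa* comes from reads alone and leaves out that spread.

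Genes reaching a normalized count of 10 in 3 or more libraries (14032) were compared in limma 3.58.1 (R 4.3.3) on log2(value + 1) with a mean-variance trend, two-sided, with p-values adjusted over all of them (Benjamini-Hochberg) at 0.05. Fold changes are on that scale. Ratios used exact permutation tests (scipy 1.17.1). The members, lists and rules were chosen with earlier results of these data known. All 9 members were named. Of each list, up to 5 called genes of largest change with a mean of at least 50 and up to 2 uncalled genes of highest mean were drawn, not all of which are given. *Vegfd* and *Cdh5* were named always. Alternatives were a pseudocount of 5, no filter or 50 in 3 libraries, 3 scalings, no trend, the recovered reads in edgeR 4.0.16 and in DESeq2 1.42.0, the replicate number as a block and leaving out each library. Fits were tested on simulated data. Figures were drawn with matplotlib 3.10.9.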

Additional observations from a re-analysis of the deposited data

How the results depend on the processing

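The count of members called was 4 higher in all 16 alternatives, and 3 to 5 lower. With libraries scaled to equal totals, 1566 of all genes were higher and 4960 lower. By list this scaling gave 10 higher and 16 lower for signalling, 8 lower for VEGF-induced genes, 13 higher for receptor traffic, 7 higher and 10 lower for hypoxia, 2 lower for semaphorins and plexins and 6 higher for lymphatic genes. Leaving mitochondrial genes out of the totals gave 5 lower for hypoxia and 2 lower for semaphorins and plexins, which also had 2 lower with no filter. With no mean-variance trend 3 genes of receptor traffic were lower. Leaving out 1 library gave 3 to 6 lower for receptor traffic, and 8 to 17 higher and 2 to 5 lower for hypoxia. The cause of these moves was not tested. With equal totals *Iqgap1* (-0.12), *Nedd4* (-0.25), *Sema3a* (-0.24) and *Usp8* (-0.0862), none of which passed, turned sign, as did *Nedd4* (-0.086) and *Sema3a* (-0.0789) without mitochondrial genes in the totals and *Nedd4* without VEC-null 2 (-0.0143, in a range up to 0.1762 over the libraries left out). For the 9 members, *Cdh5*, *Vegfd* and the list genes drawn by rule (53 genes, which leave out those named after their values were seen), of 847 values under alternatives 813 kept direction and call, 7 lost the call, 20 gained it and 7 turned sign. Each ratio kept its direction.

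Libraries of the same replicate number did not deviate together (correlations of 0.076, -0.333 and -0.295), so the numbers were not taken as pairs. With the replicate number as a block, 4 members were higher and 4 lower, and 2400 of all genes higher and 1744 lower. Depth limits *Vegfc* and *Pgf* most, with 32 to 64 reads per VEC-null library of the former and 44 to 76 per VEC-positive library of the latter.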
